A study of Mus musculus with 6 samples.

Results

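The epithelium of the bile ducts, made of cholangiocytes, rests on a basement membrane, and 8 genes of that attachment are described here out of 55401 genes counted. They were taken by symbol: Lama3 and Lamb3, which encode the alpha3 and beta3 chains of laminin-332, Itga6 and Itgb4, which encode integrin alpha6 beta4, and Col17a1, Plec, Dst and Cd151 of the hemidesmosome. Polyadenylated RNA was sequenced from cholangiocytes of wild-type mice (WT) and of a mouse model of polycystic liver disease (PLD), with 3 libraries per genotype, all 3 months after tamoxifen. The cells were collected from digested livers with magnetic beads against EpCAM, an epithelial surface protein. The gene altered in the PLD mice, the Cre driver, and the age, sex and strain of the animals are not stated in the labels. Nor do they say whether each library is a separate animal, so p-values reflect only how these samples vary, and that variation may be technical.

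Laminin-332 is a trimer in which the alpha3 and beta3 chains are joined, and is secreted by epithelial cells into the basement membrane under them. Integrin alpha6 beta4 binds it from the cell side. The long cytoplasmic tail of the beta4 subunit binds plectin, the product of Plec, which ties the complex to keratin filaments. In skin the complex also holds collagen XVII, a transmembrane protein, and BP230, an epithelial product of Dst (type I hemidesmosomes), whereas simple epithelia can form hemidesmosomes that lack both (type II). CD151 is a tetraspanin that associates with laminin-binding integrins.

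Markers of endothelium, fibroblasts and smooth muscle were higher in the WT libraries and those of cholangiocytes higher in PLD. Libraries held 15768561 to 16710548 counted reads. The summed level of 12 cholangiocyte markers, given as CPM (counts scaled to the library size, with the trimmed mean of M values, TMM), was 9390 to 13712 in WT and 32377 to 44903 in PLD, and all 12 were higher in PLD. The summed level of 12 endothelial markers was 4780 to 6225 CPM in WT and 331 to 595 in PLD, and all 12 were lower. The fibroblast and stellate list (10 genes) summed to 6908 to 11782 CPM in WT and 1748 to 4623 in PLD, and the smooth muscle list (5 genes) to 1981 to 2145 and 99.6 to 150.5. None of these markers was at 0 in all PLD libraries. The hepatocyte list (7 genes) went the other way in its sum, at 1131 to 2045 CPM in WT and 1326 to 5544 in PLD, most of it from Alb, while 5 of its genes were lower. The mesothelial sum (5 genes) was 102 to 152 CPM in WT and 10.1 to 29.7 in PLD, and the macrophage sum (6 genes) 594 to 713 and 1196 to 1635. These lists moved with the groups, and their part in the results that follow was not tested. PLD replicate 1 stood apart from the other PLD libraries, with a Pearson r of 0.976 and 0.973 across genes (log2 CPM) against 0.991 between the others, as did WT replicate 1, with 0.971 and 0.98 against 0.988. In bulk RNA, fewer cells of a type and less RNA per cell cannot be told apart.

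**Figure D1:**
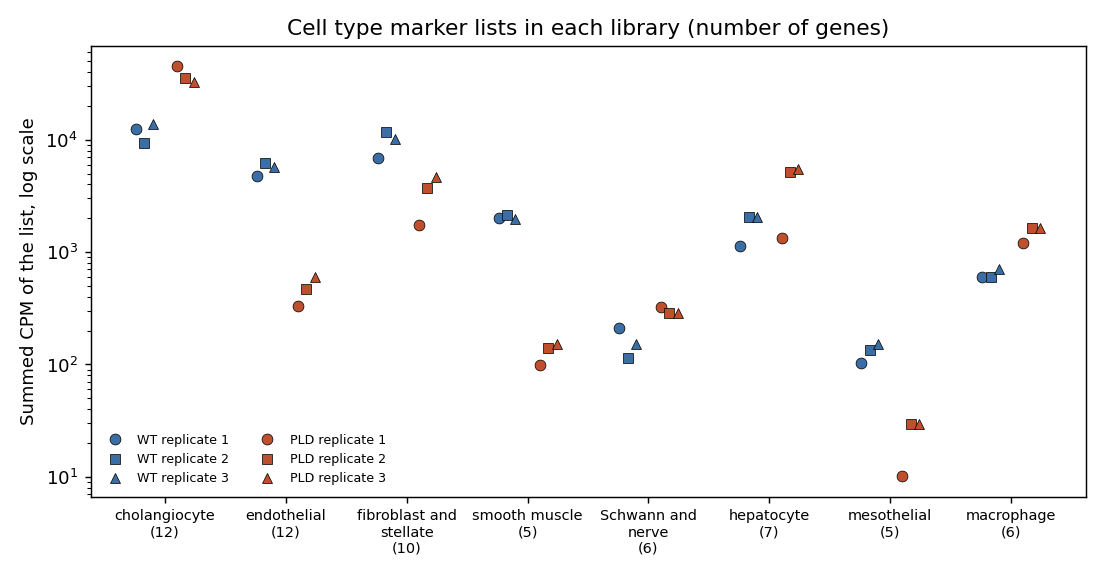
Summed CPM of 8 cell type marker lists (log axis) in each of the 3 WT (blue) and 3 PLD (red) libraries, with the number of genes under each name. The endothelial and smooth muscle sums of the PLD libraries (331 to 595 and 99.6 to 150.5 CPM) lie below every WT library, and the cholangiocyte sums (32377 to 44903 CPM) above every WT library.

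Sequences just upstream of annotated starts are shown for Lamb3, Dst and Col17a1. Lamb3 was the member that rose most, Dst the tested member that fell, and Col17a1 the member close to the detection limit. Windows from RefSeq (GRCm38.p6) entries were examined for 4 of the 8 members, with 2 starts each for Lamb3, Dst and Cd151. The windows of Cd151 are described only. A member that was not examined may still have an entry. Upstream and downstream order only the 2 starts examined for a gene. GENCODE vM21 lists 4 coding starts for Lamb3 and 11 for Dst, and both gene models begin further upstream than these windows. Of Lamb3 the window of the upstream start is printed. That of the downstream start (chr1:193301993-193302242) directly follows it and is described only. Each line gives the 250 bases before the start, 5′ to 3′ on the strand of the gene, at chr1:193301744-193301993 (+) for Lamb3, chr1:34011345-34011594 (+) and chr1:34160010-34160259 (+) for Dst, and chr19:47692043-47692292 (-) for Col17a1. Capitals mark matches on either strand to 5 short motifs. For the AP-1 family the letters searched were TGANTCA, and for the TEAD family of transcription factors they were GGAATG. The GC box was searched as GGGCGG. The TATA box of core promoters was searched as TATAAA. For the liver and bile duct factor HNF1, only the first part of its motif was searched, as GTTAAT.
Lamb3 upstream start: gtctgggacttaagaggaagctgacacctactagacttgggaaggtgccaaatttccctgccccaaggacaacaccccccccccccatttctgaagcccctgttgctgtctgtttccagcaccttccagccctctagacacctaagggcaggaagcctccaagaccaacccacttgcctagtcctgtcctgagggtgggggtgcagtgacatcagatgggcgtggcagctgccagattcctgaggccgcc
Dst upstream start: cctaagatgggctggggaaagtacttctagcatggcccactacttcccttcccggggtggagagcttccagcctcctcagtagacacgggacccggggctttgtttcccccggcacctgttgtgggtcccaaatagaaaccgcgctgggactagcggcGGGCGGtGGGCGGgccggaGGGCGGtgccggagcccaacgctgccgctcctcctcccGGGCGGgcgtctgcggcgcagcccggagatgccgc
Dst downstream start: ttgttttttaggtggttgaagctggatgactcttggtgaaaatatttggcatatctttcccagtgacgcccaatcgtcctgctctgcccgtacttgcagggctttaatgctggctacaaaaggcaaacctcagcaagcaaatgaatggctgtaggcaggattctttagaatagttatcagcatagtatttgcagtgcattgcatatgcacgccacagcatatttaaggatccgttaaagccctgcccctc
Col17a1: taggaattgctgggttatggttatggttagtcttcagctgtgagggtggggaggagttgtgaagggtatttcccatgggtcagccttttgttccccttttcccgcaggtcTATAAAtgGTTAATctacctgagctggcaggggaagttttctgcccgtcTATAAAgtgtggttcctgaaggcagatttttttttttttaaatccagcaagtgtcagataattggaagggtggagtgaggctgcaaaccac
The upstream Lamb3 window and the downstream Dst window held none of the 5 motifs. The downstream Lamb3 window, not printed, held 1 TEAD match, at -167 from its start (12.64% of 32851 such windows have one). The upstream Dst window held 4 GC boxes, a motif found in 32.74% of windows. For Cd151, which rose, the upstream window held 2 GC boxes, at -25 and -8, and the downstream window none of the 5 motifs. The Col17a1 window held 2 matches to the TATA box letters, at -140 and -91 from its start (12.37% of windows have one). It also held 1 HNF1 match, at -132 (6.43%). No AP-1 match (6.75% of windows) was in any of these windows, and the matches did not overlap each other. Which start the reads came from cannot be read from counts per gene.

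Of the 7 members with enough reads to be tested, Lama3, Lamb3, Itga6, Itgb4 and Cd151 rose in PLD, Dst fell and Plec did not pass, with Itga6, Itgb4 and Cd151 changing sign when scaled to cholangiocyte markers, in the quasi-likelihood test of edgeR, adjusted by Benjamini and Hochberg over 15334 genes. Over all genes, 55.4% were called, 27% higher and 28.4% lower. The median log2 fold change was 1.01 over the 7 members and 0.01 over all genes. Among the 7 tested, the 6 members called were also those in which the PLD and WT libraries did not overlap. Of these, 5 had PLD above (33% of all genes) and 1 had PLD below (33.2%, and 66.2% in either direction). Untested Col17a1 also had fewer reads in each PLD library than in any WT library. Tested against a log2 fold change beyond 1, Lama3 and Lamb3 passed (4.08% of all genes were higher and 10.8% lower by that test). Together the 8 members took 0.207% to 0.216% of the reads of the PLD libraries and 0.114% to 0.126% of the WT reads. Because duct markers rose as well, each member was also measured with the 12 cholangiocyte markers as the scale. These 12 rose unequally, by 0.83 (Spp1) to 3.68 (Krt7) in log2 fold change. Scaled to their own sum, 4 of them were called higher and 1 lower. On that scale the log2 fold change of the median gene moved by -1.67, and only Lamb3 was called higher (1.88% of all genes were) and Itgb4, Plec, Dst and Cd151 lower (89.5% were).

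**Figure D2:**
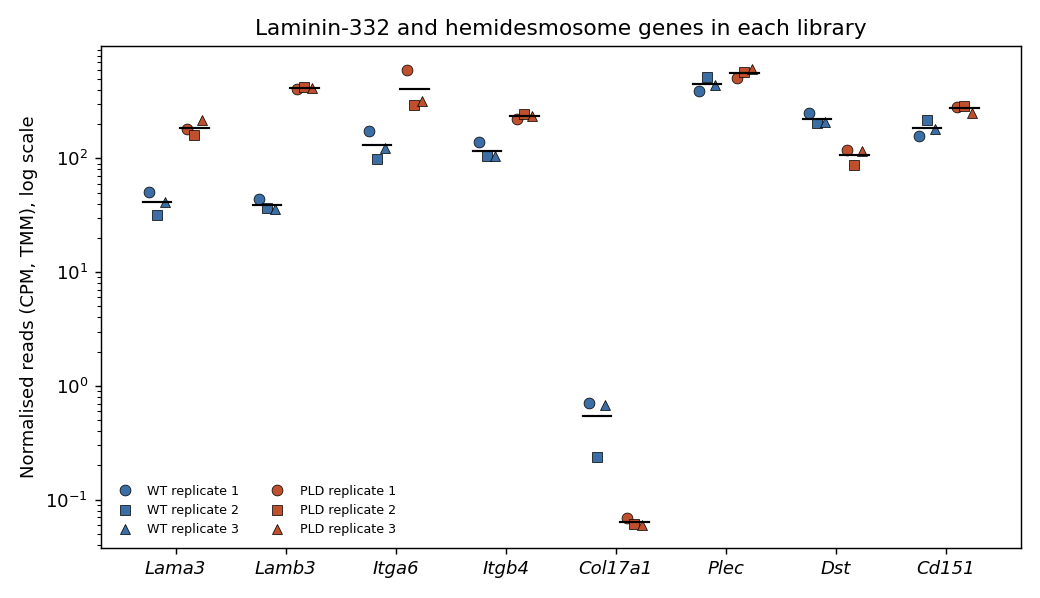
Level of the 8 genes (CPM, log axis) in each WT (blue) and PLD (red) library, with a bar at the group mean of 3 libraries. Lamb3 was between 35.6 and 44.0 CPM in WT and between 410 and 422 in PLD, Dst is the reverse case (206 to 251 against 86.9 to 119), and Col17a1 is below 1 CPM in every library.

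Lamb3, the beta3 chain (ENSMUSG00000026639.18, chr1:193207699-193343878 in mm10, as for all members, + strand), had 44.0, 36.3 and 35.6 CPM in WT replicates 1 to 3 and 410, 422 and 415 CPM in the PLD replicates. The PLD libraries lay close together, with a coefficient of variation of 1.39% against 12.1% in WT, and far above every WT library. The log2 fold change was 3.43 ± 0.12 (SE), a 10.8-fold rise (edgeR adjusted p = 2.5e-05). It was the one member called higher when scaled to cholangiocyte markers (1.76, edgeR adjusted p = 3.16e-07). Of the markers themselves, Krt7 had 2.02, Krt19 1.61 and Spp1 -0.84 on that scale. Per 1000 cholangiocyte marker reads, Lamb3 had 3.56, 3.86 and 2.60 reads in WT and 9.14, 11.9 and 12.8 in PLD. That is a mean difference of 1.76 on the log2 scale with groups that did not overlap (exact permutation test, two-sided, p = 0.1, the smallest that 3 against 3 libraries allow; 0.143 adjusted over 10 single-value tests).

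Lama3, the alpha3 chain (ENSMUSG00000024421.16, chr18:12333819-12583013, + strand), had 50.9, 31.6 and 41.4 CPM in WT and 181, 161 and 217 CPM in PLD. All PLD libraries were above all WT libraries, and the highest was PLD replicate 3. Lama3 rose by 2.17 ± 0.19 (SE) on the log2 scale, or 4.51-fold (edgeR adjusted p = 1.43e-04), and 0.54 under cholangiocyte marker scaling, where it missed the threshold (edgeR adjusted p = 0.0544). Per 1000 marker reads its reads numbered 3.02 to 4.11 in WT and 4.03 to 6.70 in PLD, and the groups overlapped. Lama3 shares 1.83% of its exon bases with an antisense gene, and the counts do not separate strands.

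Lamb3 stood higher relative to Lama3 in each PLD library than in any WT library. Levels per kilobase of exon, which allow chains to be compared, were 3.84 ± 0.90 CPM per kb for Lama3 and 5.84 ± 0.71 for Lamb3 in WT (mean ± SD, n = 3 libraries). In PLD they were 17.3 ± 2.61 and 62.9 ± 0.88. Per kilobase, Lama3 was lower than Lamb3 in each of the 6 libraries. That order depends on the exon lengths used, 10745 bases for Lama3 and 6612 for Lamb3. In reads not divided by length, Lama3 was the higher in WT replicate 1 (862 against 746) and WT replicate 3 (670 against 576). The ratio of Lamb3 to Lama3 per length was 1.41, 1.86 and 1.40 in WT and 3.69, 4.25 and 3.11 in PLD. The shift was 1.24 on the log2 scale, or 2.37-fold, with no overlap of the groups (exact permutation test, two-sided, p = 0.1, adjusted 0.143). This ratio is taken within a library, so no scaling of libraries enters it. It rests on the union of all annotated exons as length, which is the same in both groups.

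**Figure D3:**
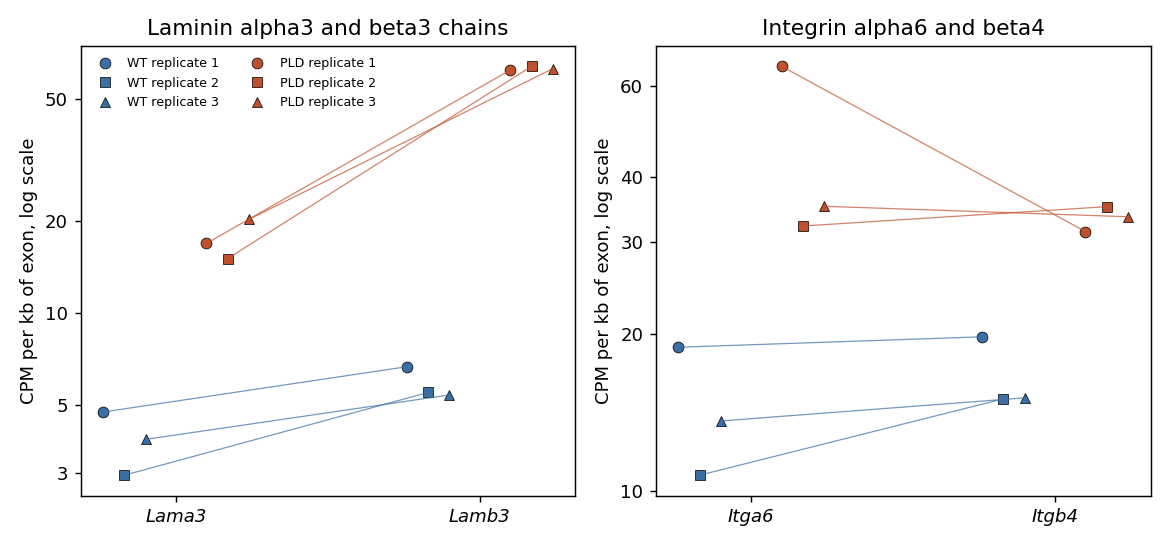
Level per kilobase of exon (CPM per kb, log axis) of the laminin alpha3 and beta3 chains (left) and of the integrin subunits (right), with a line joining the genes of 1 library (WT blue, PLD red). The step from Lama3 to Lamb3 is steeper in the PLD libraries (ratios 3.11 to 4.25) than in WT (1.40 to 1.86), and PLD replicate 1 stands above the other PLD libraries for Itga6.

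Itga6, the alpha6 subunit, which also pairs with beta1 (ENSMUSG00000027111.16, chr2:71745616-71858416, + strand), had 172, 97.9 and 124 CPM in WT and 597, 295 and 322 CPM in PLD. All PLD libraries were above WT, and PLD replicate 1 was far above the others. The log2 fold change was 1.62 ± 0.32 (SE, edgeR adjusted p = 0.00385) and 1.24 without PLD replicate 1 (edgeR adjusted p = 0.00301). Under cholangiocyte marker scaling it changed sign to -0.08, without passing (edgeR adjusted p = 0.764), and per 1000 marker reads its reads numbered 9.07 to 13.9 in WT and 8.32 to 13.3 in PLD. Endothelial cells are known to express Itga6 too, and the endothelial markers fell in the same libraries; their part in the Itga6 reads was not tested.

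Itgb4, the beta4 subunit, which pairs with alpha6 alone (ENSMUSG00000020758.15, chr11:115974709-116008412, + strand), had 139, 105.3 and 105.8 CPM in WT and 221, 246 and 236 CPM in PLD. The groups did not overlap, and PLD replicate 1 was the lowest PLD library here. The log2 fold change was 1.01 ± 0.13 (SE), a 2.01-fold rise (edgeR adjusted p = 7.17e-04). Under cholangiocyte marker scaling the direction reversed to -0.65 (edgeR adjusted p = 0.0203), with 7.71 to 11.2 reads per 1000 marker reads in WT and 4.91 to 7.28 in PLD. Per kilobase, Itgb4 and Itga6 were near each other: the ratio of Itgb4 to Itga6 was 1.05, 1.40 and 1.11 in WT and 0.482, 1.09 and 0.955 in PLD. The groups overlapped (difference -0.57 on the log2 scale, exact permutation test, two-sided, p = 0.2, adjusted 0.222). Without PLD replicate 1 the difference was -0.21.

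Plec, the plakin that joins beta4 to keratins (ENSMUSG00000022565.15, chr15:76170974-76232574, - strand), had 394, 515 and 439 CPM in WT and 505, 578 and 613 CPM in PLD. PLD replicate 1 lay below WT replicate 2, so the groups overlapped. The log2 fold change was 0.33 ± 0.14 (SE) and missed the threshold (edgeR adjusted p = 0.0769). It passed without PLD replicate 1 (0.41, edgeR adjusted p = 0.0363), without WT replicate 2 (0.44, 0.0419), with a replicate block (0.34, 0.0499) and after a correction for gene length (0.77, 0.00268). Under cholangiocyte marker scaling it reversed to -1.35 (edgeR adjusted p = 3.8e-05), with 31.9 to 54.8 reads per 1000 marker reads in WT and 11.3 to 18.9 in PLD. Plec is expressed in many cell types, including muscle and endothelium, and 1.13% of its exon bases are shared with another gene on the same strand.

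Dst, whose products include BP230 and larger proteins of nerve and muscle (ENSMUSG00000026131.20, chr1:33908225-34308661, + strand), was the tested member that fell. It had 251, 206 and 208 CPM in WT and 119, 86.9 and 116 CPM in PLD, with every PLD library below every WT library. The log2 fold change was -1.04 ± 0.15 (SE, edgeR adjusted p = 0.00105) and -2.72 under cholangiocyte marker scaling (edgeR adjusted p = 6.97e-11). Per 1000 marker reads its reads numbered 15.2 to 21.9 in WT and 2.45 to 3.58 in PLD. After the gene length correction the fall was -0.31, which missed the threshold (edgeR adjusted p = 0.128). Its annotated exons span 41619 bases, the longest among the members, and 3.59% of these bases overlap 2 antisense genes. Its 14 coding transcripts in GENCODE vM21 use 11 starts, so the level of the BP230 form is not given by these counts. The smooth muscle markers fell beside it (sum 1981 to 2145 CPM in WT, 99.6 to 150.5 in PLD). Of 6 Schwann cell and nerve markers 4 fell, and S100b and Mbp rose, so that the sum was 114 to 209 CPM in WT and 285 to 325 in PLD. The part of these cells in the fall of Dst was not tested.

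Col17a1, encoding collagen XVII (ENSMUSG00000025064.15, chr19:47646344-47692094, - strand), had 12, 4 and 11 reads in the WT libraries and 1 read in each PLD library. It did not have enough reads to enter the test. All 6 libraries were below 1 CPM, and 3 counts, taken as a floor per library, correspond to 0.180 to 0.190 CPM. The ratio of reads per total reads, WT to PLD, was 9.04 (27 against 3 reads, 95% exact binomial interval 2.78 to 46.5, which covers counting error only). When the filter on low counts was dropped, its log2 fold change was -2.93 ± 0.76 (SE, edgeR adjusted p = 0.00809). Even in WT it stood at 0.090 CPM per kb, beside 16.6 for Itgb4.

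Cd151 (ENSMUSG00000025510.14, chr7:141467392-141471473, + strand) had 156, 215 and 182 CPM in WT and 283, 289 and 251 CPM in PLD. The groups did not overlap, and WT replicate 2 came closest to the PLD libraries. Cd151 rose by 0.57 ± 0.14 (SE) on the log2 scale, or 1.49-fold (edgeR adjusted p = 0.00986), and it reversed to -1.13 under cholangiocyte marker scaling (edgeR adjusted p = 2.53e-04). Cd151 is also made by endothelial cells, and 7.04% of its exon bases overlap an antisense gene.

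**Figure D4:**
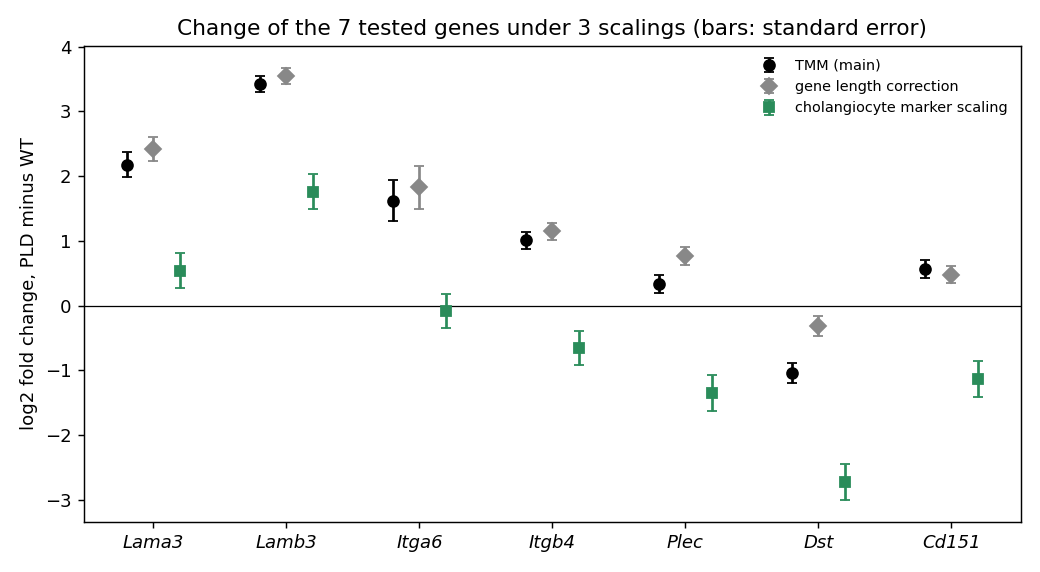
Log2 fold change (PLD minus WT) of the 7 tested genes with its standard error, under the main scaling (black), a gene length correction (grey) and scaling to 12 cholangiocyte markers (green). Lamb3 stays above 0 by more than its error under all 3 (3.43, 3.55 and 1.76), Lama3 is near the threshold under marker scaling (0.54), and Itga6, Itgb4, Plec and Cd151 change sign there.

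Per length, the order of the members also differed between the groups. In WT it ran from Cd151 (67.2 ± 10.8 CPM per kb, mean ± SD, n = 3 libraries) over Plec (24.8 ± 3.35), Itgb4 (16.6 ± 2.71), Itga6 (14.4 ± 4.13), Lamb3, Dst (5.32 ± 0.61) and Lama3 to Col17a1. The ranges of Itgb4 and Itga6 overlapped there, as did those of Lamb3 and Dst. In PLD, Cd151 (100.1 ± 7.55) was followed by Lamb3, Itga6 (44.2 ± 18.3), Itgb4 (33.4 ± 1.84), Plec (31.2 ± 3.04), Lama3, Dst (2.58 ± 0.43) and Col17a1. Lamb3 was thus among the lower members in WT and second in PLD, where the ranges of Lamb3, Itga6, Itgb4 and Plec each overlapped that of a neighbour. The level of Dst per length rests on an exon union of 41619 bases, and which of its transcripts the reads came from was not tested.

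Genes below a mean log2 CPM of 3, predicted genes and the members themselves were left out of a comparison of profiles. The genes nearest to Lamb3 over the 6 libraries were Sowaha, the duct keratin gene Krt7, Dio3os, the duct keratin gene Krt19 and Sema3e. Their Euclidean distance to Lamb3, between centred log2 CPM profiles, was 0.36, 0.36, 0.38, 0.52 and 0.55. Nearest to Itgb4 were Arhgap44, Zfp706, Hist1h2bc, Ilvbl and Ptprd, with distances of 0.13 to 0.15 and log2 fold changes of 0.94 to 1.04. Each turned negative under cholangiocyte marker scaling. That follows from the scale, which moved the median gene by -1.67, and is not a separate likeness to Itgb4. The difference between the groups dominates these distances.

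The other laminin chains were 1 higher, 5 lower and 2 not passing among 8, beside 27% higher and 28.4% lower of all genes. Their median log2 fold change was -0.83. Under cholangiocyte marker scaling 0 were higher and 8 lower (1.88% and 89.5% of all genes). The higher one was Lama5, the alpha chain of laminin-511 (0.60 ± 0.11 SE, edgeR adjusted p = 0.0032, reversed to -1.07 under marker scaling). Lama4, a chain of endothelial and muscle basement membranes, fell by 2.83 ± 0.29 and Lamc3 by 3.54 ± 0.37 on the log2 scale. Lamb2 fell by 0.72 ± 0.10 and Lama2, the alpha chain of muscle and nerve basement membranes, by 1.82 ± 0.30. The endothelial and smooth muscle marker medians were -3.45 and -4.09 in the same libraries, and their part in these falls was not tested.

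Laminin receptors and integrin partners were 5 higher, 1 lower and 5 not passing among 11, beside 27% higher and 28.4% lower of all genes. The list became 1 higher and 8 lower under cholangiocyte marker scaling (1.88% and 89.5% of all genes). Bcam, a laminin alpha5 receptor, rose by 1.87 ± 0.13 and the syndecan gene Sdc1 by 2.31 ± 0.16 on the log2 scale, the latter being the one still higher under marker scaling (0.61, edgeR adjusted p = 0.0271). Itga3, whose integrin alpha3 beta1 is the other main laminin-332 receptor, rose by 1.19 ± 0.12 (-0.49 under marker scaling). Its levels were 241, 286 and 298 CPM in WT and 620, 640 and 625 in PLD. The tetraspanin gene Cd9 rose by 1.10 ± 0.15 (-0.61 under marker scaling), while Itgb1, the beta1 subunit, missed the threshold at -0.32 (edgeR adjusted p = 0.0612).

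Genes of laminin-332 processing and anchorage were 2 higher, 5 lower and 4 not passing among 11 (27% of all genes were higher and 28.4% lower). Under cholangiocyte marker scaling 1 was higher and 10 lower (1.88% and 89.5% of all genes). Tll1, a protease of the BMP1 family, enzymes that process matrix proteins, had 216 reads over the WT libraries and 10 over PLD (log2 fold change -4.32 ± 0.35 SE, edgeR adjusted p = 9.63e-05). Nid2 and Hspg2, encoding the basement membrane proteins nidogen-2 and perlecan, fell by 1.97 ± 0.22 and 1.87 ± 0.25. Plat, the tissue plasminogen activator gene, rose by 2.38 ± 0.31 and was still higher under marker scaling (0.62, edgeR adjusted p = 0.0329). Col7a1, which forms the anchoring fibrils of skin, was low in both groups (8.22 to 11.6 CPM in WT, 5.37 to 11.9 in PLD) and did not pass. Of 3 sheddases of collagen XVII, Adam17 fell by 0.31 ± 0.10 (edgeR adjusted p = 0.0335, lost with 5 of the 6 libraries left out in turn, with 0.122 without PLD replicate 2, 0.0542 with a replicate block, 0.113 without a low count filter, and 0.179 after the length correction, with a log2 fold change of -0.16), and Adam9 (0.05) and Adam10 (-0.01) did not pass; all 3 were lower under marker scaling.

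Plakins and partners of the plaque were 6 higher, 3 lower and 1 not passing among 10 (27% of all genes were higher and 28.4% lower). Under cholangiocyte marker scaling 0 were higher and 7 lower (1.88% and 89.5% of all genes). The desmosomal plakin gene Dsp rose by 1.77 ± 0.18 and Fermt1, encoding the epithelial integrin activator kindlin-1, by 1.78 ± 0.17 on the log2 scale (0.11 and 0.12 under marker scaling, neither passing). Macf1, the plakin gene closest to Dst, fell by 1.28 ± 0.13, and Fermt2, encoding the more widely expressed kindlin-2, by 1.55 ± 0.12. All 4 tested keratins rose (27% of all genes did), 2 of them also under marker scaling (1.88%), a scale of which they are part. They were Krt7 (log2 fold change 3.68 ± 0.16), Krt19 (3.26 ± 0.25), Krt18 (1009 to 1661 CPM in WT, 3536 to 5394 in PLD) and Krt8 (1.41 ± 0.26), the latter pair with -0.06 and -0.24 under marker scaling. The basal keratins Krt5 and Krt14, the partners of plectin in skin, had at most 3 reads in any library and were not tested.

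Signalling genes of alpha6 beta4 went both ways, 5 higher, 6 lower and 3 not passing among 14 (27% of all genes were higher and 28.4% lower). Under cholangiocyte marker scaling 0 were higher and 11 lower (1.88% and 89.5% of all genes). The kinase gene Src rose by 1.13 ± 0.13 and the receptor gene Erbb2 by 0.94 ± 0.11 (-0.54 and -0.75 under marker scaling). The kinase gene Fyn fell by 2.54 ± 0.27 and the adaptor gene Irs1 by 1.80 ± 0.24. Among 12 epithelial transcription factor genes 7 were higher and 2 lower of 11 tested (27% and 28.4% of all genes). By marker scaling 0 were higher and 7 lower (1.88% and 89.5% of all genes). Elf3 rose by 1.99 ± 0.23 and Klf5 by 1.87 ± 0.25 (0.32 and 0.23 under marker scaling, neither passing), and Klf4 fell by 0.75 ± 0.11 and Tead1 by 0.64 ± 0.12. Trp63, a transcription factor of basal epithelia, was not tested, with 2 PLD reads and 7 WT reads in all. Over all 75 genes of the lists 30 were higher and 23 lower of 72 tested, beside 27% and 28.4% of all genes. Under marker scaling 4 were higher and 54 lower, beside 1.88% and 89.5% of all genes.

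**Figure D5:**
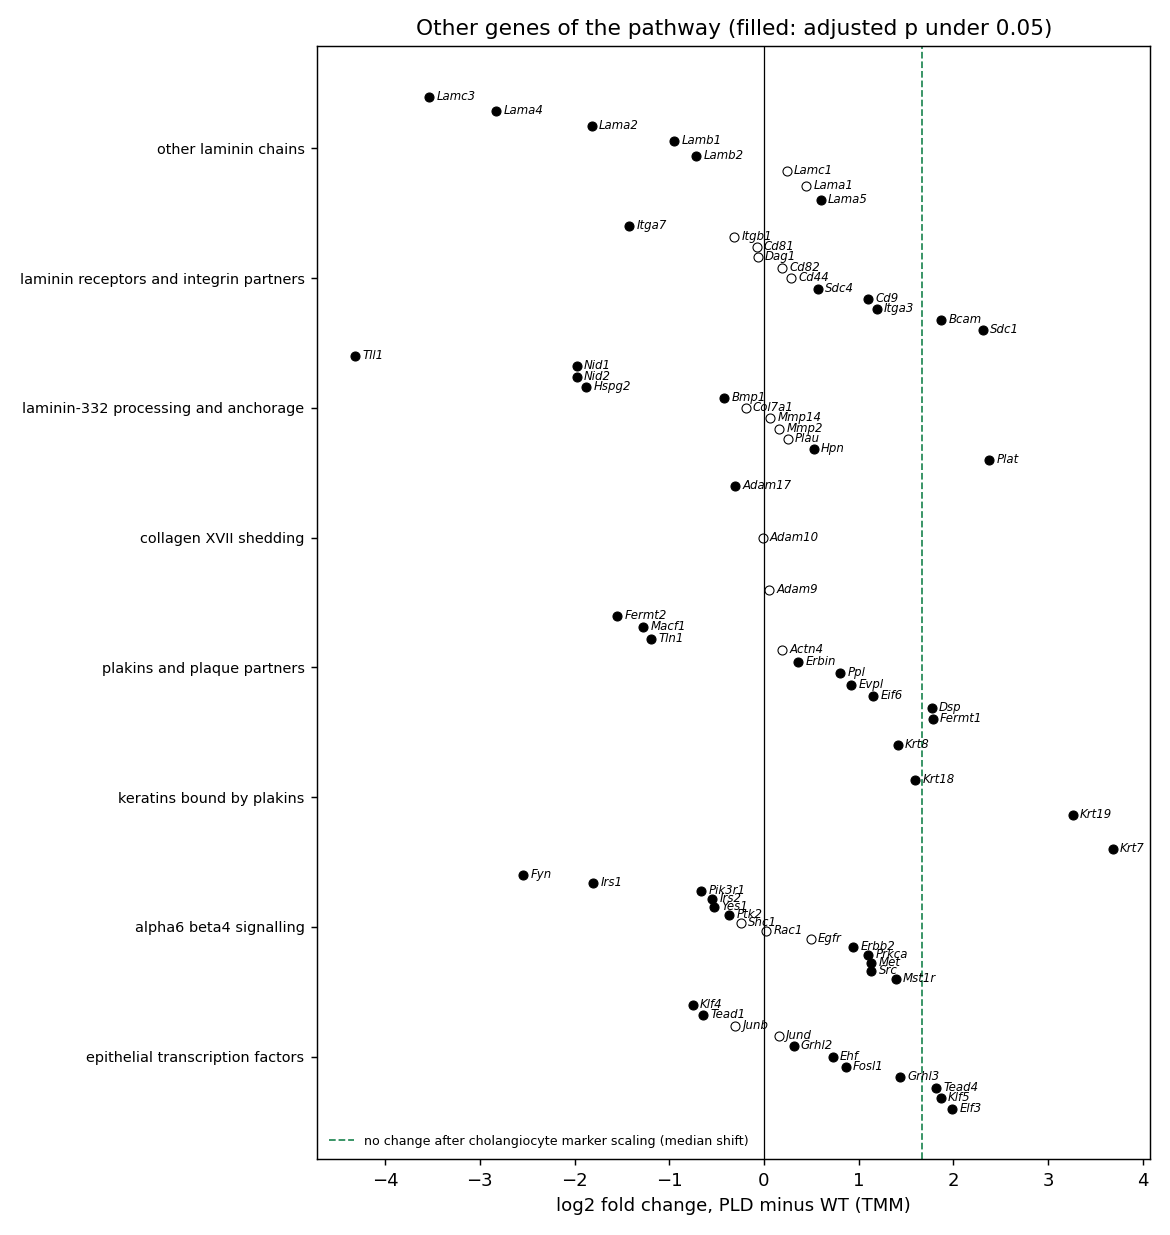
Log2 fold change (PLD minus WT) of 72 tested genes of 8 lists around laminin-332 and the hemidesmosome; filled points passed the edgeR test. Points left of the dashed green line (1.67, the shift of the median gene) are negative or near 0 when scaled to cholangiocyte markers, as for Itga3 (1.19, then -0.49), while Krt7, Krt19, Sdc1 and Plat to its right were called higher under both scalings.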

How the data were processed

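Raw counts per gene were deposited by the authors as 1 table per library. Per the submitters' processing notes the tools were STAR 2.7.4a, SAMtools 1.12, featureCounts 1.6.0 and DESeq2 1.26.0, with mm10 and GENCODE vM25. Per the file headers, featureCounts was called without a strand setting, so reads of overlapping antisense genes cannot be told apart. Symbols were matched by gene ID for 55141 of 55401 genes.

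From the counts, CPM with TMM factors, log2 fold changes and quasi-likelihood tests were computed with edgeR 4.0.16 in R 4.3.3 (filterByExpr with a minimum count of 10, 15334 genes, Benjamini-Hochberg adjustment, threshold 0.05). Levels per kilobase used the exon length in the deposited tables. In simulated counts with these means and library sizes, 70% of 2-fold and 95% of 4-fold changes were recovered. Far fewer genes changed in the simulation than the 55.4% called in the data, so these rates need not hold for the data. Ratios were tested by exact permutation. Alternatives were DESeq2 1.42.0, limma 3.58.1 (voom), other scaling factors and filters, a replicate block, a length correction, a minimum change, and leaving out each library.

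The members and gene lists were chosen with earlier results of these data known. Named were all members, up to 4 genes per list with the smallest p, and the 5 nearest profiles of Lamb3 and of Itgb4. Lama5, Itgb1, Col7a1 and the untested Krt5, Krt14 and Trp63 were named outside this rule, after their values were seen, as were single marker genes. Libraries with the same number deviated together only weakly, most of all in replicate 1 (r = 0.156, 0.0363 and 0.0613 over genes). They were not treated as pairs. Some genes of the lists are not reported here and were left out of the list counts.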

Additional observations from a re-analysis of the deposited data

How the results depend on the processing

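Cholangiocyte marker scaling changed the most calls. Lama3 (0.54) lost its call, and the log2 fold changes of Itga6 (-0.083), Itgb4 (-0.65), Plec (-1.35) and Cd151 (-1.13) reversed, leaving 1 member higher and 4 lower. Over all genes it gave 288 higher and 13718 lower (2.06% of calls higher, against 48.7%), and over the lists 4 and 54. It also reversed Itga3 (-0.49), Cd9 (-0.61), Adam9 (-1.66), Krt18 (-0.065), Krt8 (-0.24), Erbb2 (-0.75), Src (-0.54), Epcam (-0.051), Arhgap44 (-0.63), Zfp706 (-0.63), Hist1h2bc (-0.68), Ilvbl (-0.72) and Ptprd (-0.62).

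A test beyond a log2 fold change of 1 removed the calls of Itga6 (1.62), Itgb4 (1.01), Dst (-1.04) and Cd151 (0.57), leaving 2 members higher and 0 lower, 626 and 1650 of all genes, and 11 and 10 of the list genes. The length correction brought Plec past the threshold (0.77) and took the calls of Dst (-0.31) and Adam17 (-0.16), leaving 0 members lower, and turned Adam10 to 0.051. Without a low count filter 2 members were lower, since Col17a1 entered the test, Adam17 lost its call (-0.29), and Adam10 was 0.0037.

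With 1 library left out, Plec ranged from 0.25 to 0.44, members lower from 1 to 2, Itga6 per marker read from -0.27 to 0.086, Adam9 from -0.13 to 0.17 and Adam10 from -0.083 to 0.038. Itga6 per marker read was 0.057 with keratins left out of the markers, and Col17a1 per marker read was -3.80 with a pseudocount. The cause of these changes was not tested.

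With the replicate block, Plec passed (0.34, edgeR adjusted p = 0.0499) and Adam17 did not, and 3920 genes were higher and 4242 lower, against 4136 and 4357 without it. Only replicate 1 correlated best with its own number in the other genotype. The log2 fold change of Itga6 was 1.58 ± 0.12 (SE) with the block and 1.62 ± 0.32 without it. DESeq2, limma-voom, the other scaling factors and the robust fit changed no call of a member. With 3 libraries per genotype the exact permutation tests could not go below 0.1, and Col17a1 was near the counting floor.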
